A study of Mus musculus with 40 samples.

Results

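Lcp1, Gbp7, Eloa, Heca and C130074G19Rik are 5 mouse genes whose total RNA level stood higher after in vitro than after in vivo handling in both denuded oocytes and zygotes. They are 5 of the 11323 genes that occur in at least 1 of the deposited tables, and they were picked from these same libraries because their total RNA was higher in IVM than in IVO oocytes and in IMZ than in IVZ zygotes. Their levels in those 2 comparisons are therefore given as a description and not as a finding.

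The study set in vitro maturation, as used in assisted reproduction, against maturation in the animal, and sequenced total RNA and RNA of a polysome fraction. It held 5 cell groups with 4 libraries each in each fraction, 40 libraries in all. IVM were denuded oocytes matured in vitro. COC were matured in vitro as cumulus-oocyte complexes, IVO were oocytes matured in vivo, IMZ were pronuclear zygotes matured and fertilized in vitro, and IVZ were pronuclear zygotes matured and fertilized in vivo. No group carries a transgene or drug in the labels, and the sources used here give no mouse strain, age or hormone treatment. The zygote groups differ in both maturation and fertilization, whose parts cannot be told apart, and whether the IMZ oocytes kept their cumulus cells is not given. Whether the 4 libraries of a group come from different animals is left unsaid in the labels, and the p-values below then describe variation among these samples alone, part of which may be technical.

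A fully grown oocyte has largely stopped transcription, so during maturation and up to the pronuclear zygote most of its messenger RNA is a maternal store that is translated, kept silent or degraded on a schedule. The level of a gene in total RNA then reflects mostly how much of that store remains. Its level in the polysome fraction reflects how much of it is bound by several ribosomes. Both levels are relative to all reads of the same library. Lcp1 encodes L-plastin, an actin-bundling protein best known from leukocytes. Gbp7 encodes a guanylate-binding protein, a large GTPase of a family induced by interferons. Eloa encodes Elongin A, which speeds transcription by RNA polymerase II and also serves a cullin ubiquitin ligase. Heca is the homolog of headcase, known from Drosophila, where it acts in development together with unkempt. C130074G19Rik is a protein-coding gene known by its clone name, and no role is given for it here.

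Levels are in RPKM, reads scaled to gene length and to the mapped reads of the library, as the authors deposited them. Setting levels side by side between genes depends on the gene length used. The total RNA libraries held 46.6 to 63.2 M reads, with a median of 53.7 M, read from the steps between low RPKM values. All 13 oocyte markers were listed in the total RNA tables, with sums of 5662 to 6494 RPKM in IVM, 5052 to 5602 RPKM in COC, 5104 to 5862 RPKM in IVO and 3606 to 4350 RPKM over the zygote libraries. Zp2, a zona pellucida gene and one of those markers, was higher in IVM, at 271 ± 16.9 RPKM against 172 ± 16.5 RPKM in IVO (SD, n = 4; limma adjusted p 0.0316). That call was lost in 6 of 8 fits with 1 library left out (all but those without IVM replicate 2 or IVO replicate 3), under median-of-ratios scaling and with the replicate block. Of 8 sperm markers 2 were listed, Ldhc and Prm2, with sums of 5.81 to 14.0 RPKM over all total RNA libraries. Ldhc, a lactate dehydrogenase subunit of the germ line, was higher in IVM at 1.44 ± 0.180 RPKM against 0.571 ± 0.0694 RPKM in IVO with no overlap (SD, n = 4; log2 fold change 0.63, limma adjusted p 0.00748, not called with the replicate block). Zp2 and Ldhc were named after their values were seen, and their part in the levels of the 5 genes was not tested. Of 23 cumulus and granulosa markers 2 were listed in all 4 total RNA tables, Cyp19a1 and Nr5a2. Their sums were 12.02 to 15.8 RPKM over all total RNA libraries and 13.01 to 14.3 RPKM in COC. In total RNA 3 were listed for COC and IVO and for IVM and COC, and by limma none was called. Between COC and IVO 1 of the 3 had an unadjusted limma p under 0.05, against 7.08% of all genes. In these bulk samples, fewer cells of a type and less RNA per cell cannot be told apart.

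C130074G19Rik (ENSMUSG00000039349) lies on chromosome 1 at 184871926 to 184883218, minus strand, in GRCm38 as annotated by GENCODE M21. In total RNA its level was 2.51, 2.79, 2.56 and 2.94 RPKM in the 4 IVM libraries and 0.342, 0.426, 0.482 and 0.456 RPKM in the 4 IVO libraries. It was 1.67, 1.22, 1.99 and 1.42 RPKM in IMZ and 0.228, 0.329, 0.337 and 0.339 RPKM in IVZ. In COC it was 0.834, 0.839, 0.607 and 0.962 RPKM. The 5 groups did not overlap, and their order from high to low was IVM, IMZ, COC, IVO and IVZ. IVO and IVZ all but touched, at 0.342 RPKM in the lowest IVO library and 0.339 RPKM in the highest IVZ library. No IVO library came near IVM, and 5.56% of all genes likewise had every IVM library above every IVO library; 4.65% had every IMZ library above every IVZ library. The ratio of means was 6.33 between IVM and IVO and 5.12 between IMZ and IVZ, the widest of the 5 genes at both stages. The low groups rested on few reads, 58.0 to 78.0 per library in IVO and 40.0 to 62.0 in IVZ, against 362 to 445 in IVM.

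Lcp1 (ENSMUSG00000021998) lies on chromosome 14 at 75131101 to 75230842, plus strand (GRCm38), where Gm15628 and Gm15629 overlap it on the opposite strand. Without the strand setting of the counting, which the sources do not give, their reads cannot be told apart from those of Lcp1. Its total RNA level was 5.30, 4.71, 4.87 and 4.84 RPKM in IVM against 1.84, 2.32, 2.43 and 2.35 RPKM in IVO. In zygotes it was 5.45, 4.17, 4.90 and 4.42 RPKM in IMZ against 2.08, 2.30, 1.86 and 1.87 RPKM in IVZ. COC stood at 2.65, 2.88, 2.38 and 2.78 RPKM. IVM and IMZ overlapped each other and lay clear of the rest, while COC overlapped IVO by its lowest library. The ratio of means was 2.21 in oocytes and 2.34 in zygotes. Because Lcp1 is abundant in leukocytes, their markers were read beside it. Of 22 leukocyte markers 4 were listed, Cd68, Laptm5, Srgn and Vav1, with sums of 10.03 to 14.1 RPKM in IVM, 10.6 to 16.5 RPKM in COC, 7.58 to 10.54 RPKM in IVO, 10.3 to 18.1 RPKM in IMZ and 11.3 to 19.96 RPKM in IVZ. Srgn made up most of these sums, at a mean of 10.7 RPKM in IVM and 7.78 RPKM in IVO. The group means of Cd68, Laptm5 and Vav1 reached at most 1.23 RPKM, for Laptm5 in IMZ. The other 18 markers, Ptprc and Coro1a among them, were not listed in all 4 total RNA tables. The part of such cells in the Lcp1 level was not tested.

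Gbp7 (ENSMUSG00000040253) lies on chromosome 3 at 142530342 to 142550149, plus strand (GRCm38), and has close paralogs and an overlapping pseudogene, Gm43802, that could share reads with it, so its level is less certain. In total RNA it stood at 1.62, 1.51, 1.13 and 1.14 RPKM in IVM and at 0.631, 0.474, 0.771 and 0.515 RPKM in IVO. IMZ held 1.18, 1.01, 1.26 and 1.21 RPKM and IVZ 0.514, 0.709, 0.810 and 0.578 RPKM. COC held 0.564, 0.871, 0.6998 and 0.752 RPKM, within reach of IVO and IVZ. It was the lowest of the 5 genes in IVM and in IMZ, and IVM replicates 1 and 2 stood above the other IVM and all IMZ libraries. The window upstream of its RefSeq start is shown because it holds elements of the interferon pathway. It covers chr3:142530086-142530335 on the plus strand (RefSeq, GRCm38.p6), read 5′ to 3′, with motif matches in capitals.
Gbp7: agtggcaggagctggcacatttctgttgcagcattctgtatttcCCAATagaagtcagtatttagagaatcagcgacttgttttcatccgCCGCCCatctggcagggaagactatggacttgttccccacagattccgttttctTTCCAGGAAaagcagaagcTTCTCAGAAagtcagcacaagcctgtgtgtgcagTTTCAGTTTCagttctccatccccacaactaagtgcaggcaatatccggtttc
On both strands it holds 1 match to the interferon-stimulated response element (GAAA, any 2 bases, GAAA), found in 2.98% of all promoter windows of this length and 2.33% of those of genes in all total RNA tables, and 2 to the gamma-activated site (TTCNNNGAA), found in 7.02% and 5.68%. The other capitals are 1 GC box (GGGCGG) and 1 CCAAT box (CCAAT). A match describes letters only.

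Eloa (ENSMUSG00000028668) lies on chromosome 4 at 136003368 to 136021763, minus strand (GRCm38), where the antisense gene Gm13008 overlaps it. Gm24362, annotated as sense intronic, overlaps it on the same strand. The strand setting of the counting is not given in the sources used here. Reads of Eloa and Gm13008 cannot be told apart without it. Eloa had the highest RPKM of the 5, with 7.14, 8.30, 7.33 and 7.23 RPKM in IVM and 4.99, 4.44, 5.04 and 4.77 RPKM in IVO. IMZ held 7.59, 6.86, 6.75 and 7.53 RPKM and IVZ 4.13, 4.91, 5.93 and 4.48 RPKM. COC, at 5.27, 4.32, 4.37 and 5.73 RPKM, could not be set apart from IVO or IVZ, which its libraries overlapped. The ratio of means was 1.56 in oocytes and 1.48 in zygotes. The rank of Eloa above Lcp1 depends on gene length. With GENCODE M21 exonic lengths the IVM levels stand for 2159 to 2526 reads per library for Lcp1 and 1609 to 1992 for Eloa. In IVO replicates 3 and 4 Eloa came to 1184 and 1265 reads, but Lcp1 to 1151.16 and 1255.81, not whole numbers. The length behind the Lcp1 values may therefore be another, and which of the genes held more reads is not known. All exons of Lcp1 span 9504 bases and its measured transcript 3841, where both lengths are 4708 for Eloa.

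Heca (ENSMUSG00000039879) lies on chromosome 10 at 17868612 to 17948067, minus strand (GRCm38), with no overlapping annotated gene. Its total RNA level was 2.46, 2.17, 2.72 and 2.51 RPKM in IVM against 1.17, 1.42, 1.39 and 1.41 RPKM in IVO. In zygotes IMZ held 2.19, 2.39, 2.24 and 2.22 RPKM and IVZ 1.21, 1.71, 1.67 and 1.48 RPKM. COC held 1.92, 1.49, 1.38 and 1.82 RPKM and overlapped both IVO and IVZ. Its IMZ libraries were the closest together of any group of the gene, within 2.19 to 2.39 RPKM. The window upstream of its start is shown because it holds a motif found in few promoters. It covers chr10:17948068-17948317 on the minus strand (RefSeq, GRCm38.p6), read 5′ to 3′, with motif matches in capitals.
Heca: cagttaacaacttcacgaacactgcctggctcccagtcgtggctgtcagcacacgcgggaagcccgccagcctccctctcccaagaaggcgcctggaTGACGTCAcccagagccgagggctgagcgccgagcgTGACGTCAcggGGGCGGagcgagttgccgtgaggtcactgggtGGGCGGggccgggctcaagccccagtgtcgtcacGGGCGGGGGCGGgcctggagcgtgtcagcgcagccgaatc
It holds 2 copies of the cAMP response element (TGACGTCA), a palindrome that 1.55% of all promoter windows of this length and 2.71% of those of genes in all total RNA tables carry, and 4 GC boxes. A GC box was found in the first-start window of all 5 genes. It occurred in 32.7% of all windows and 57.0% of those of genes in all total RNA tables, counted over every start. The window of the other Lcp1 start held no GC box. A TATA box (TATAAA) or E-box (CACGTG) was in none of the first-start windows. Absence was usual, since a TATA box occurred in 12.4% and 6.55% of the same 2 sets of windows and an E-box in 6.02% and 8.51%.

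**Figure D1:**
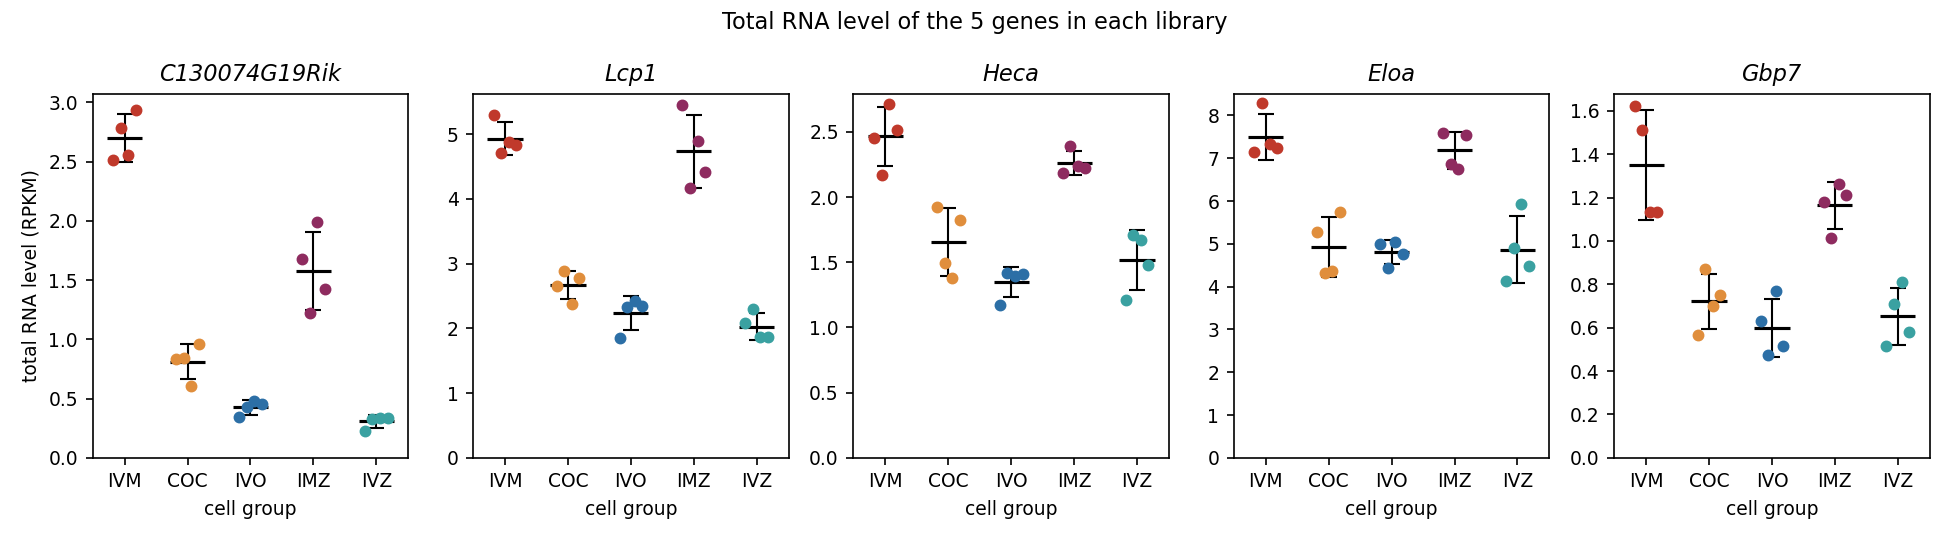
Total RNA level in RPKM of each gene in every library of the 5 cell groups; dots are libraries, bars the mean with SD, n = 4. In each panel every IVM and IMZ library lies above every COC, IVO and IVZ library, and C130074G19Rik alone has a wide step from IVM to IMZ.

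Read over all 20 total RNA libraries, each of the 5 genes had every IVM and IMZ library above every COC, IVO and IVZ library. Of the 10660 genes in all 4 total RNA tables, 0.15% showed that arrangement, and since the choice of the genes used most of it, nothing is read from the share. The margin was narrow for Eloa, with 6.75 RPKM in the lowest high library and 5.93 in the highest low one. It was also narrow for Heca, at 2.17 and 1.92 RPKM, and for Gbp7, at 1.01 and 0.871 RPKM. For Lcp1 it was wide, at 4.17 and 2.88 RPKM.

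The maturation of oocytes within their cumulus complex was set beside both other oocyte groups. COC and IVM were both matured in vitro. All 5 genes stood above COC in every IVM library, as did 3.55% of all genes. Of the distance between the mean IVO and mean IVM level, COC had covered 27.4% for Heca, 16.9% for C130074G19Rik, 16.4% for Gbp7, 16.1% for Lcp1 and 4.25% for Eloa. C130074G19Rik was the one gene with every COC library above every IVO library, a pattern seen in 2.25% of all genes. Its log2 fold change there was 0.34 ± 0.07 (SE) on log2(RPKM + 1), a scale that understates changes at low levels, and those of the other 4 ranged from 0.02 for Eloa to 0.18 for Lcp1. The Eloa difference had no settled direction, since it lay below 0 after median-of-ratios scaling and without COC replicate 1, COC replicate 4 or IVO replicate 2, over a range of -0.042 to 0.071. These comparisons share the IVO or IVM libraries with the choosing ones and are described with no test.

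On the same scale the choosing comparison of oocytes gave log2 fold changes of 1.37 ± 0.06 for C130074G19Rik, 0.88 ± 0.08 for Lcp1, 0.56 ± 0.07 for Heca, 0.55 ± 0.08 for Eloa and 0.55 ± 0.09 for Gbp7. The zygote comparison gave 0.97 ± 0.09, 0.92 ± 0.09, 0.38 ± 0.08, 0.49 ± 0.10 and 0.39 ± 0.07 for the same genes in that order. The authors' deposited table gives C130074G19Rik a log2 fold change of 2.61 in oocytes and 2.34 in zygotes. Over all genes, 0.509% were called higher in oocytes and 0.508% in zygotes at a limma adjusted p under 0.05, and 7 of 10679 genes were called higher in both. Those 7 are the 5 genes and also Dpf2 and Hsf2. Of the 5, only C130074G19Rik and Lcp1 stayed called in oocytes with any 1 library left out other than IVM replicate 2. With the replicate block only C130074G19Rik did. Gbp7 was also lost without IVM replicate 2, and Eloa and Gbp7 after median-of-ratios scaling. In zygotes only C130074G19Rik and Lcp1 stayed called with the block and without IMZ replicates 1, 2 or 3 or IVZ replicates 1 or 4. By the larger of the 2 adjusted p, Gbp7 at 0.0406 and Hsf2 at 0.0454 lay just inside the threshold and Kdm1b at 0.0534 just outside it. These are the values that chose the genes and are not support for them.

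The zygote groups were set beside the oocyte groups of the same handling, a comparison added after the data were seen. It uses the libraries of the choosing comparisons and is described with no test. C130074G19Rik stood lower in IMZ zygotes than in IVM oocytes, with a mean of 1.58 ± 0.330 RPKM in IMZ and 2.70 ± 0.199 RPKM in IVM (SD, n = 4). Its log2 fold change was -0.53 ± 0.09, and no IMZ library reached the IVM range, as for 26.5% of all genes. For the other 4 genes IMZ and IVM overlapped, with log2 fold changes from -0.11 for Gbp7 to -0.05 for Lcp1. Those of Lcp1 and Eloa turned to just above 0 after median-of-ratios scaling.

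Between IVO oocytes and IVZ zygotes C130074G19Rik was again the lower in zygotes, at 0.426 ± 0.0610 RPKM in IVO and 0.308 ± 0.0538 RPKM in IVZ (SD, n = 4). The groups did not overlap, as for 16.8% of all genes, and the log2 fold change was -0.12 ± 0.06. They were parted by very little, with 0.342 RPKM in the lowest IVO library and 0.339 RPKM in the highest IVZ library. The other 4 genes overlapped, with log2 fold changes from -0.09 for Lcp1 to 0.10 for Heca. The direction of the Eloa difference, 0.01 ± 0.10, turned without IVZ replicate 2, IVZ replicate 3 or IVO replicate 2.

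**Figure D2:**
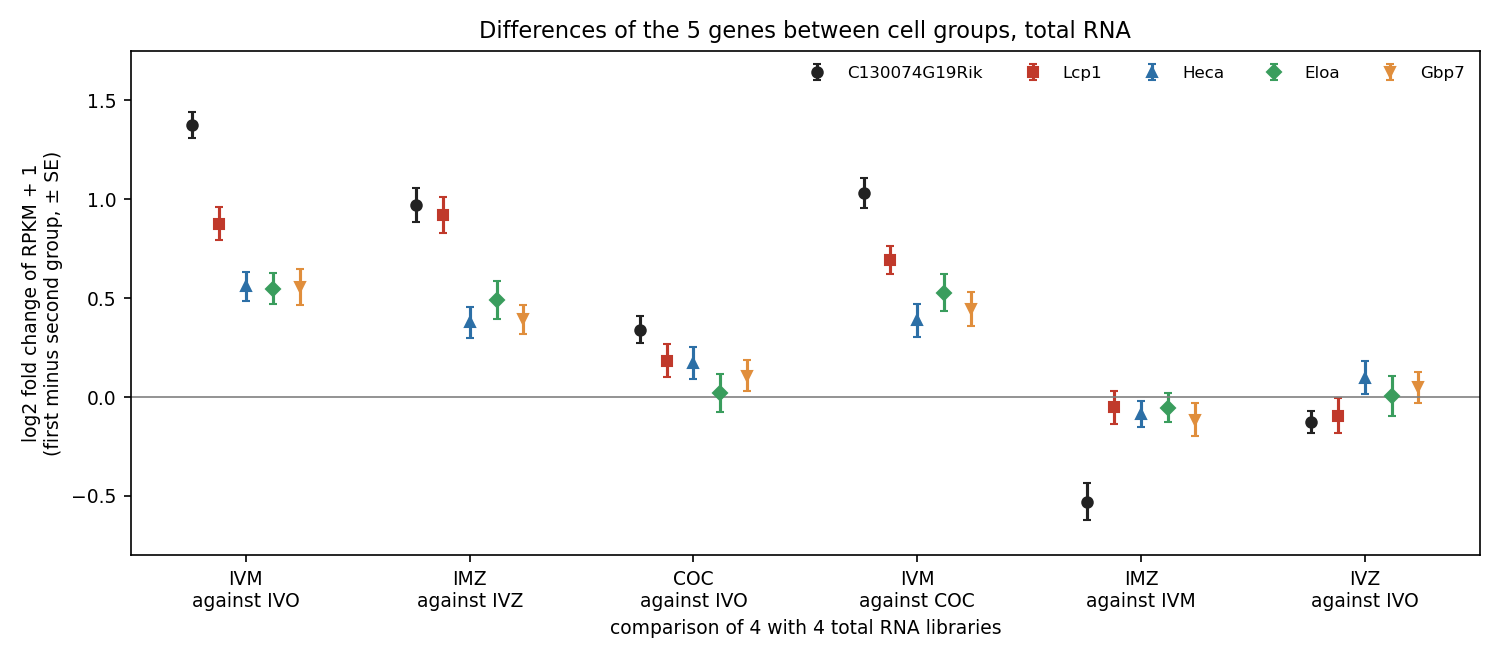
Log2 fold change of RPKM + 1 with its SE for each gene in 6 comparisons of total RNA, 4 libraries against 4. The 2 comparisons at the left chose the genes; between IMZ and IVM C130074G19Rik stands at -0.53 and the other 4 genes between -0.11 and -0.05, where Lcp1 and Eloa turn to just above 0 after median-of-ratios scaling.

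The polysome fraction was not used in choosing the genes. No polysomal table holds a value under 0.2 RPKM, and 3 of the 5 genes were listed in 1 table each: Lcp1 for IMZ and IVZ, and Eloa and Heca for COC and IVO. C130074G19Rik and Gbp7 were in no polysomal table. Of genes whose total RNA level lay between 20% below and 25% above that of C130074G19Rik, 8.79% were listed in the polysomal table of IVM and IVO, and for Gbp7 the share was 4.03%, so absence was usual at such levels. Eloa was absent from the polysomal tables of IVM and IVO, of IVM and COC and of IMZ and IVZ, in which 44.6%, 42.2% and 68.8% of genes near its total RNA level were listed. Where a gene is not listed, its polysomal level is not known here.

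Lcp1 stood at 1.76, 3.52, 5.01 and 2.37 RPKM in the polysomal IMZ libraries and at 0.786, 3.33, 0.769 and 1.64 RPKM in the polysomal IVZ libraries. The groups overlapped, with IVZ replicate 2 above 2 of the IMZ libraries. The log2 fold change was 0.70 ± 0.39, with a 95% interval from -0.13 to 1.53, an unadjusted p of 0.0926 and a limma adjusted p of 0.859, so the difference did not pass. The authors' deposited table gives a log2 fold change of 0.96 with a p-value of 0.0558. Per the file headers the authors excluded IVZ replicate 1. Without that library the value on log2(RPKM + 1) was 0.55, lower than with all libraries.

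Eloa had the widest polysomal difference of the 3. The polysomal COC libraries held 0.950, 1.33, 1.28 and 2.75 RPKM and the IVO libraries 6.14, 7.83, 2.97 and 1.64 RPKM. IVO replicate 4 lay within the COC range and the other 3 IVO libraries lay above it. The log2 fold change was -1.02 ± 0.40, with a 95% interval from -1.87 to -0.17, an unadjusted p of 0.0211 and a limma adjusted p of 0.834, so it did not pass over all genes. An unadjusted limma p under 0.05 was found for 5.23% of all genes in this comparison. In total RNA the same groups stood at 4.92 ± 0.697 and 4.81 ± 0.273 RPKM (SD, n = 4). The polysomal mean was thus 0.321 of the total mean in COC and 0.966 in IVO. The authors' deposited table gives a log2 fold change of -1.76 with a p-value of 5.00e-05. The median of all genes in this comparison was 0.18, and after rescaling that removed it the Eloa value was -1.16.

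Heca stood at 0.859, 3.004, 0.515 and 2.31 RPKM in the polysomal COC libraries and at 1.93, 2.06, 1.36 and 4.06 RPKM in the polysomal IVO libraries. The groups overlapped widely, and the log2 fold change of -0.38 ± 0.37 had a limma adjusted p of 0.874. Its size rested on single libraries, at -0.14 without COC replicate 3, -0.16 without IVO replicate 4, -0.24 without COC replicate 1 and -0.61 without COC replicate 2. No gene passed in any of the 4 polysomal comparisons (0% of those tested). In these comparisons 152 to 394 genes had an unadjusted limma p under 0.05, a share of 2.98% to 5.68% of those tested. In simulated data 0 or 1 of 200 genes changed by 1 on the log2 scale were recovered there, so a miss says little about the genes.

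**Figure D3:**
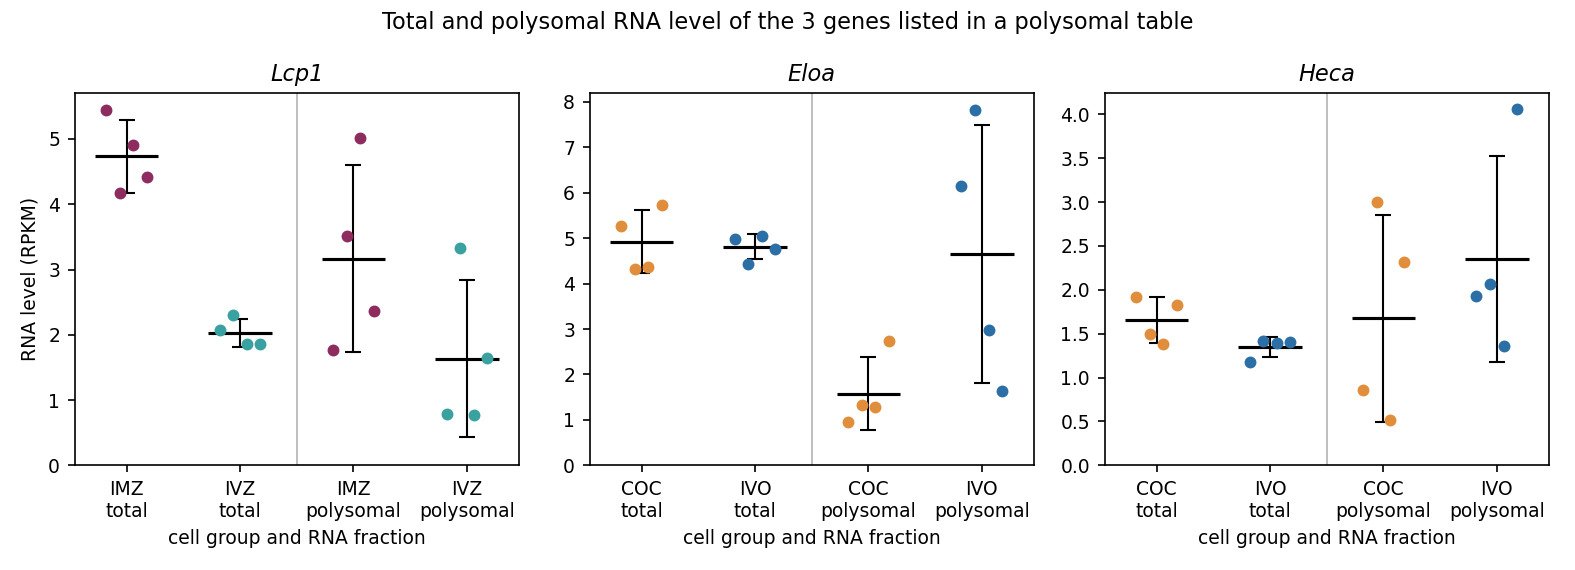
Total and polysomal RNA level in RPKM of Lcp1, Eloa and Heca in the cell groups of the polysomal table that lists each; dots are libraries, bars the mean with SD, n = 4. Total RNA libraries of a group lie close together, while polysomal libraries spread over several fold and overlap between groups.

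Genes related to Lcp1, Gbp7 and Eloa by family, pathway or function were read from lists, leaving out the 5 genes themselves. Of the 27 other actin bundling and crosslinking genes 21 were listed for IVM and IVO in total RNA; by limma none was called, against 0.509% of all genes, while unadjusted p was under 0.05 for 4 of them, against 10.9% of all genes. Their median log2 fold change was 0.05 beside 0.03 for all genes. Between COC and IVO 1 of 21 was called higher, the only call among 10981 genes. Between IVM and COC 1 of 21 was called lower, against 0.00897% of all genes. In zygotes 1 of 21 was called higher, against 0.508% of all genes. This was Plec, a cytoskeletal linker, at 2.68 ± 0.0974 RPKM in IMZ and 1.60 ± 0.366 RPKM in IVZ (SD, n = 4; limma adjusted p 0.0339). Pls1, the other plastin in these tables, stood at 19.9 ± 0.667 RPKM in IVM and 22.6 ± 1.31 RPKM in IVO, opposite in sign to Lcp1 and not called, with a limma adjusted p of 0.383. Plec was named after its values were seen, and its call was lost in 5 of 8 fits with 1 library left out (without IMZ replicates 1, 2 or 3 or IVZ replicates 1 or 4) and with the replicate block. In the polysome fraction Ezr, a membrane-actin linker, had the smallest p of the list between IMZ and IVZ, with a log2 fold change of -0.98 ± 0.45 and a limma adjusted p of 0.845.

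The relatives of Gbp7 were mostly not listed. Of 17 other guanylate-binding proteins and immunity-related GTPases 1 was listed for IVM and IVO, Gbp8, at 0.395 ± 0.0292 and 0.317 ± 0.0669 RPKM (SD, n = 4), named after its values were seen, and none was listed for zygotes. Of 42 interferon receptors, JAK-STAT and interferon-induced genes 15 were listed in oocytes and 14 in zygotes, and by limma none was called between IVM and IVO or between IMZ and IVZ in total RNA, against 0.509% of all genes called higher in oocytes and 1.66% called either way in zygotes. An unadjusted p under 0.05 was found for 2 of them in oocytes and 4 in zygotes, against 10.9% and 18.9% of all genes. Their median log2 fold change was 0.03 between IVM and IVO, as over all genes, and 0.09 between IMZ and IVZ beside -0.0017 for all genes. In the polysome fraction Ifitm3, an interferon-induced membrane protein, had a log2 fold change of -1.59 ± 0.40 between IMZ and IVZ, with a limma adjusted p of 0.777.

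Beside Eloa were set 33 genes of the elongin complex, its cullin ligases and RNA polymerase II elongation, 31 of them listed in oocytes. By limma none was called between IVM and IVO, against 0.509% of all genes, and 3 had an unadjusted p under 0.05, against 10.9%. In zygotes 1 of 30 was called higher and 2 lower, against 0.508% and 1.15% of all genes. Nelfb, a subunit of the negative elongation factor, stood at 1.81 ± 0.124 RPKM in IMZ and 1.22 ± 0.104 RPKM in IVZ (SD, n = 4; limma adjusted p 0.0354). Leo1, a subunit of the PAF1 complex, fell in IMZ to 21.3 ± 3.67 RPKM from 36.2 ± 7.38 RPKM in IVZ (SD, n = 4; limma adjusted p 0.0332). Eloc, which binds Elongin A, fell to 23.4 ± 3.50 RPKM from 31.8 RPKM (n = 4; limma adjusted p 0.0421), opposite in direction to Eloa. Nelfb and Eloc were named after their values were seen. With 1 library left out the call was lost in 6 of 8 fits for Nelfb and for Eloc (without IMZ replicates 1, 2 or 3 or IVZ replicates 1, 3 or 4) and in 5 of 8 for Leo1 (without IMZ replicates 1, 2 or 3 or IVZ replicates 1 or 4). With the replicate block Nelfb and Eloc were not called, nor was Eloc after median-of-ratios scaling.

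The genes whose total RNA pattern was most like each of the 5 were found by Pearson's r over log2(RPKM + 1) of the 20 total RNA libraries, given with no p because the libraries share their groups. For C130074G19Rik they were E130309D02Rik (0.96), Lcp1 (0.95) and Prickle2 (0.94). For Lcp1 they were C130074G19Rik (0.95), Heca (0.90) and Gbp7 (0.89), and for Heca they were Dync1li1 (0.94), Lcp1 (0.90) and C130074G19Rik (0.89). Eloa was closest to Kdm5a (0.91), Heca (0.89) and Senp2 (0.89), and Gbp7 to Akirin1 (0.91), Bach1 (0.91) and Abce1 (0.90). Pairs among the 5 genes ranged from 0.81 to 0.95, a likeness that their choice in part fixed.

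Because stored messages carry control elements near the 3′ end, the last 100 bases of 1 annotated transcript of each gene were searched on the transcript strand. Eloa alone held the long form of the cytoplasmic polyadenylation element (TTTTAAT), present in 5.68% of 10323 genes, and C130074G19Rik alone held a Pumilio element (TGTANATA), present in 5.23%. The short stretches around both are shown with the element in capitals; the C130074G19Rik element overlaps the polyadenylation signal (AATAAA).
Eloa: caagatgaataTTTTAATtagataagttat
C130074G19Rik: cttgcctttgcTGTAAATAaaagttccagc
None of the 5 held the shorter element TTTTAT, found in 15.3% of genes, and all 5 held AATAAA, found in 66.3%. Their 3′ untranslated regions ran from 1504 bases in Lcp1 to 3575 bases in Gbp7, above the median of 1109 bases over the genes measured.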

How the data were processed

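The authors deposited 8 tables, for 4 comparisons in each of 2 fractions. Per the file headers, each gives RPKM values per gene and library, the authors' log2 fold change, a fold change as a ratio and the authors' p-value; the authors' test is not given in the sources used here. Per the labels' protocols the kit was SMARTer Stranded v2, Pico Input, and the submitters' processing notes name DRAGEN and the build GRCm39. No value in any table was under 0.2 RPKM. Polysomal IVM replicate 1 and IVZ replicate 1 were marked by the authors as excluded and were kept here.

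Depth of total RNA libraries was read from RPKM steps with GENCODE M21 exonic lengths: 71.3 to 79.7% of genes under 60 reads came within 0.1 of a whole read, where chance gives 20%. No count test was run. Polysomal depth was ambiguous and is not given, and read numbers cover counting error only. The limma package (3.58.1, under R 4.3.3) was run per comparison on 8 libraries as log2(RPKM + 1), with a mean-variance trend and without covariates, two-sided, with Benjamini-Hochberg adjustment over all genes of the table. Stage comparisons joined tables, in which a library's values were identical. In simulated total RNA data 186 to 195 of 200 genes changed by 1 on the log2 scale were recovered.

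Members and lists were chosen with earlier results of these data known. Named genes were the 5, 4 per list with the smallest polysomal p (Ezr, Vil1, Actn4 and Pls1; Ifitm3, Irf3, Ifnar1 and Adar; Leo1, Supt5, Supt4a and Supt16), none of which passed there, and the 3 most alike genes by Pearson's r. Promoter and transcript sequences are from RefSeq GRCm38.p6 and GENCODE M21; all 5 genes matched. Alternatives were a pseudocount of 0.1, median-of-ratios scaling, a mean RPKM of at least 1, a replicate block and each library left out. Figures were drawn with matplotlib 3.10.9.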

Additional observations from a re-analysis of the deposited data

Results flagged for a closer look

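Of 31 sets of 4 libraries, 1 per gene and group, 3 held a library far from the other 3, where chance marks about 1 set in 20. C130074G19Rik was lowest in IVZ replicate 1 of total RNA, at 0.228 RPKM beside 0.329 to 0.339 RPKM. Heca was lowest in IVO replicate 1 of total RNA, at 1.17 RPKM beside 1.39 to 1.42 RPKM. Eloa was highest in IVM replicate 2 of total RNA, at 8.30 RPKM beside 7.14 to 7.33 RPKM.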

How the results depend on the processing

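The number of genes called depended on single libraries. Between IVM and IVO in total RNA, 56 genes were called, 7 to 52 with 1 library left out (52 without IVM replicate 2, at most 12 without any other), 11 after median-of-ratios scaling, 34 with a mean RPKM of at least 1 and 1 with the replicate block. Between IMZ and IVZ in total RNA, 180 were called, 29 to 424 with 1 library left out (29 without IVZ replicate 4, 424 without IMZ replicate 4) and 67 with the replicate block. Between COC and IVO 1 was called, 1 to 2 with 1 library left out and 2 with the block, and between IVM and COC 5 were called and 1 with the block. In no comparison did every same-number pair of libraries correlate over 0.1. In total RNA 3 pairs did for COC against IVO and for IVZ against IVO. Whether the replicate numbers pair the samples is therefore not settled. A pseudocount of 0.1 widened the fold changes of low genes, to 2.42 for C130074G19Rik between IVM and IVO. Directions turned for Lcp1 (0.034) and Eloa (0.038) between IMZ and IVM after median-of-ratios scaling, and for Eloa between IVZ and IVO without IVZ replicate 2 (-0.0017), where leaving out 1 library gave -0.078 to 0.066. For Eloa between COC and IVO in total RNA the value was -0.0014 after median-of-ratios scaling and -0.042 to 0.071 with 1 library left out. The cause was not tested. No polysomal result of the 5 genes passed under any alternative, with adjusted p from 0.300 to 0.9997. Few reads limit C130074G19Rik in IVO and IVZ.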
